A study of Mus musculus with 4 samples.

Results

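Lysosomal hydrolases and membrane proteins were followed in macrophages of healthy and leukaemic mice. The set is a list of 32 gene names, and 31 of them matched the symbol of a row in each of the 4 deposited tables, out of 17008 genes with at least 1 uniquely mapped read in any table. The remaining name, Tcfeb, is an older symbol of Tfeb (Gene ID 21425), which is described separately and left out of the counts. Macrophages were sorted from bone marrow and spleen of C57BL/6J mice, with an age of 6 to 8 weeks on the labels. The normal libraries, 1 per organ, stand for day 0. The T-ALL libraries, again 1 per organ, come from day 21 after transfer of GFP-positive T cell acute lymphoblastic leukaemia cells, taken from leukaemic mice, into mice that were not irradiated and so kept their own blood-forming cells. The sources used here do not give the oncogenic driver, the sort markers or the number, sex or pooling of mice. The study asks how leukaemia-associated macrophages differ from those of homeostasis.

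The lysosome is the acidic compartment in which macrophages digest what they engulf. Soluble hydrolases each cut 1 kind of bond in sugars, lipids or proteins, activator proteins present lipids to them, and membrane proteins protect the compartment and export its products. Inherited loss of a single member usually causes a storage disease, in which the undigested substrate fills macrophages and neurons. Many lysosomal genes carry an E-box, the letters CACGTG, near their start. TFEB and its relatives bind it within a longer sequence called the CLEAR element.

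Levels are given as CPM, the reads of a gene scaled to a common library total. Totals ran from 9.0e+06 to 9.8e+06 uniquely mapped reads, so that 1 read was worth 0.102 to 0.111 CPM. A gene was called higher or lower when it differed at least 2-fold on log2(CPM + 1) and reached 10 CPM in the higher library. With 1 library in each group, differences could not be set against the spread between replicates, and p-values are absent. Values in parentheses after a fold are its exact binomial 95% counting interval, which does not cover the spread between mice. Folds are ratios of CPM without the pseudocount, and log2 folds are on log2(CPM + 1).

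Marker genes of other cells were present in all 4 libraries and differed between them. The 12 genes of neutrophil precursors took 3.58% of the reads of normal bone marrow, 1.81% of T-ALL bone marrow, 0.0384% of normal spleen and 0.0186% of T-ALL spleen, led by Ngp and Mpo. The 14 macrophage genes, led by Lyz2 and Csf1r, took 0.404%, 0.966%, 0.7998% and 0.403% in that order. Their sums were 4017, 9748, 8034 and 3992 CPM, of which Lyz2 made up 2572, 5494, 946 and 241 CPM. Csf1r was at 133, 947, 2415 and 1421 CPM, so the 2 leading genes did not share 1 order of libraries. T cell genes (12, led by Tcf7 and Lef1) took 0.0181%, 0.0754%, 0.101% and 0.357%, B cell genes (7, led by Cd79a and Cd22) 0.0365%, 0.0410%, 0.286% and 0.139%, and dendritic cell genes (7, led by Itgax and Ccr7) 0.0161%, 0.0218%, 0.110% and 0.0317%. The 6 erythroid genes, led by Slc4a1 and Epor, stayed between 0.00609% and 0.0165%. The 10 cell cycle genes, with Top2a and Mki67 highest, took 0.325%, 0.207%, 0.0535% and 0.217%. None of these markers was at 0 reads in any library.

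The lysosomal genes were well covered and took the largest share of reads in normal spleen. Every member passed 10 CPM in at least 1 of the 2 libraries in each comparison, so all 31 entered each count. Their summed share was 0.460% of reads (0.456 to 0.464) in normal bone marrow, 0.884% (0.878 to 0.890) in T-ALL bone marrow, 1.07% (1.06 to 1.08) in normal spleen and 0.684% (0.679 to 0.689) in T-ALL spleen. Psap alone made up much of that, and without it the shares were 0.346%, 0.476%, 0.584% and 0.3599%. The highest level lay in normal spleen for 20 of the 31 members, in normal bone marrow for 7, in T-ALL bone marrow for 4 and in T-ALL spleen for 0. Over all 10312 genes that reached 10 CPM anywhere, these places were taken by 33.3%, 28.5%, 12% and 26.2%.

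Compared per length in the deposited RPKM, the members spanned a wide range of levels with a fixed top. Psap, the precursor of the 4 saposins that help enzymes degrade sphingolipids, was first in each library, at 426 RPKM in normal and 1522 RPKM in T-ALL bone marrow, and at 1809 RPKM in normal and 1211 RPKM in T-ALL spleen. Lamp1 was second in all 4 libraries, between 151 and 285 RPKM. The lowest place was taken by Sgsh in normal bone marrow (3.98 RPKM) and T-ALL spleen (4.95 RPKM) and by Gla in normal spleen (3.27 RPKM) and T-ALL bone marrow (8.91 RPKM). Those last places were shared within counting error in the T-ALL libraries, where Sgsh stood at 8.93 RPKM in bone marrow and Arsb at 4.95 RPKM in spleen.

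**Figure D1:**
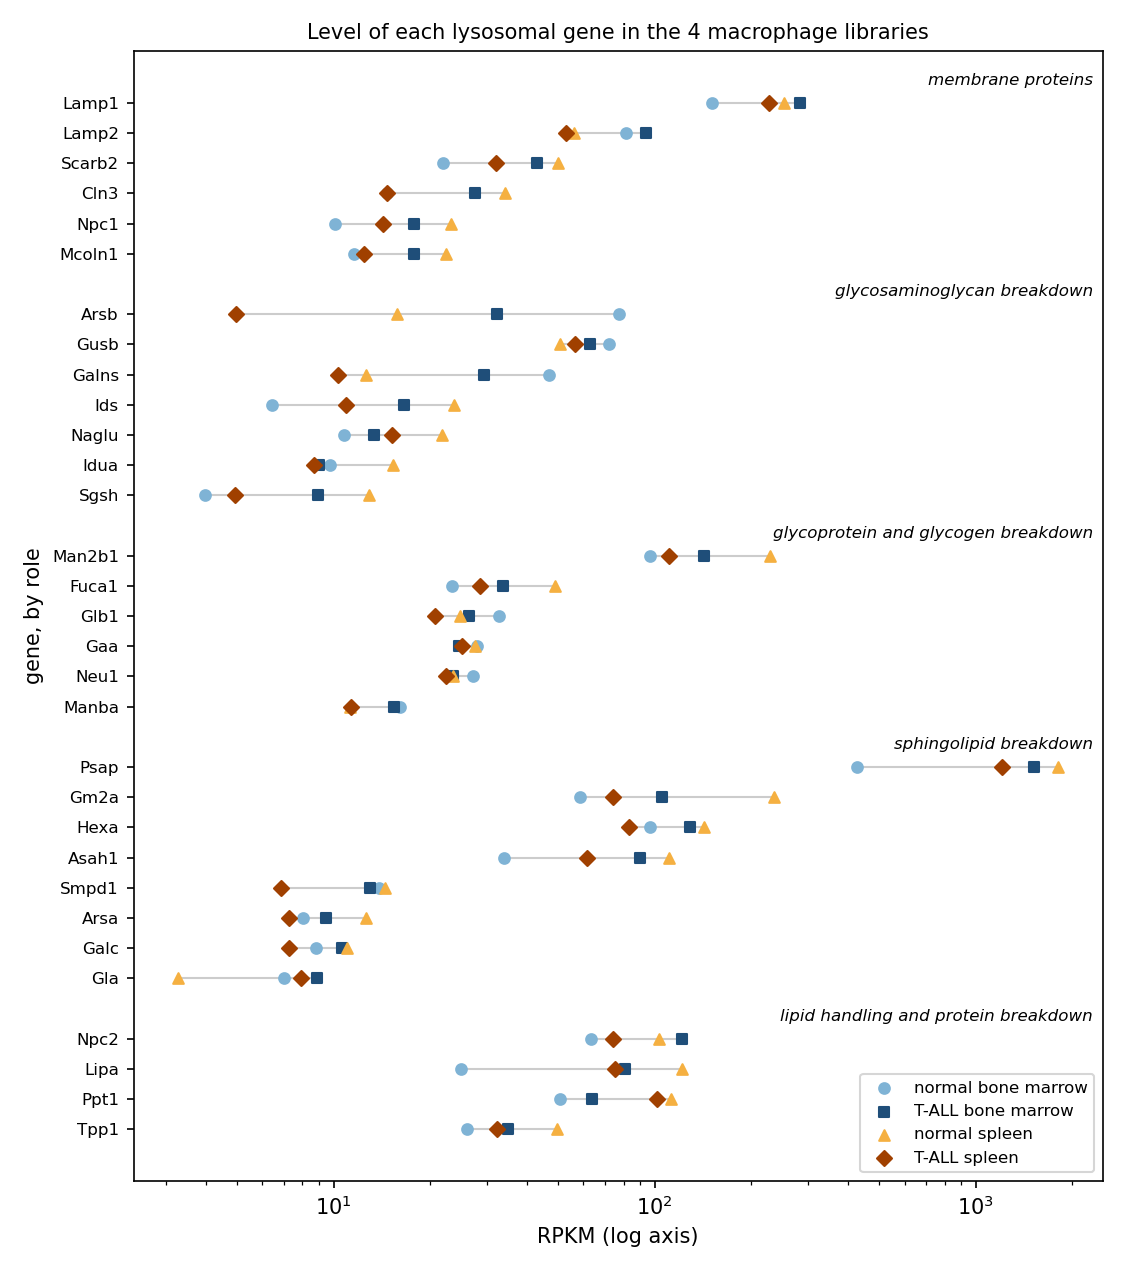
RPKM of the 31 lysosomal genes (log axis) in each of the 4 libraries, grouped by role; each symbol is 1 library and the grey line spans the 4. Psap lies to the right of all other genes in each library, and Arsb and Galns run from normal bone marrow down to T-ALL spleen.

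The E-box was looked for in the members' promoters, and the stretch around it is printed for each member that held it, because it is the core of the element that TFEB binds. RefSeq promoter windows (GRCm38.p6, 250 bases before to 50 after a start) were found for 28 of the 31 members, with Asah1, Galns and Npc1 unmatched. The hexamer CACGTG, which reads the same on both strands, was in 9 of these 28 genes (32.1%) and in 8.09% of the 27025 genes in the table. TCACGTGA, which contains it, was in 3 of 28 (10.7%; Cln3, Gla and Mcoln1) and in 1.12% of all genes, and the full 10-letter core of the CLEAR element in 1 of 28 (Cln3) and in 0.37%. Before the start, 4 members had 2 or more hexamers, as did 0.429% of all 32851 windows. Of these members Lamp1 had 4 hexamers, a number that 0.0213% of all windows reach. Each stretch ends at or before the base ahead of the start, reads 5′ to 3′ along the gene, and has the hexamers in capitals.
Lamp1 (chr8:13159080-13159160, plus strand): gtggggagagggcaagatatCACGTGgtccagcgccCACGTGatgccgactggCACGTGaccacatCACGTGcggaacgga
Cln3 (chr7:126583332-126583405, minus strand): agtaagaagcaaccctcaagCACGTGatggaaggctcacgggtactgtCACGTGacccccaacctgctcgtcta
Mcoln1 (chr8:3500428-3500499, plus strand): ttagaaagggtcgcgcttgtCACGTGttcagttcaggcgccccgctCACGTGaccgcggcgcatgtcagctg
Gla (chrX:134601174-134601252, minus strand): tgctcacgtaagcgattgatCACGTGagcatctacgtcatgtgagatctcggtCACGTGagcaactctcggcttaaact
Sgsh (chr11:119355514-119355559, minus strand): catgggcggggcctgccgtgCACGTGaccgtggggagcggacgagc
Naglu (chr11:101070001-101070046, plus strand): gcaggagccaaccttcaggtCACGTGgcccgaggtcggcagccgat
Arsa (chr15:89477425-89477460, minus strand): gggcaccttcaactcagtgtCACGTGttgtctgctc
Glb1 (chr9:114401010-114401055, plus strand): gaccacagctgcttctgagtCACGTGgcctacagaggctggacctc
Gaa (chr11:119267803-119267848, plus strand): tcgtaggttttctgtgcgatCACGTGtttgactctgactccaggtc
The hexamer nearest the start ended 10 bases before it in Lamp1, 11 in Arsa, 24 in Sgsh, 40 in Mcoln1, 43 in Glb1, 68 in Naglu, 116 in Cln3, 135 in Gaa and 189 in Gla. The other 19 members with a window did not hold the hexamer in it. A match describes letters in the window and not binding, and coordinates are those of the RefSeq table, since the build of the deposited files is not given.

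In bone marrow, 5 of the 31 members were called higher in the T-ALL library and 1 was lower. They were Psap, Lipa, Asah1, Ids and Sgsh on the higher side, and Arsb on the lower. Over all 9716 genes that reached the minimum, 8.01% were higher and 1.03% lower, against 16.1% and 3.23% of the members. The members' median log2 fold was 0.43, that of all genes -0.04, and 22 of the 31 had a log2 fold above 0. The 14 macrophage genes had a median of 2.70 with 12 called higher, and 0 of the 31 lysosomal members lay above that median. Neutrophil precursor genes had a median of -1.61 with 9 of 12 lower, and T cell genes one of 1.94 with 12 of 12 higher. The medians were -0.70 for cell cycle, 0.06 for B cell, 0.62 for dendritic cell and 1.03 for erythroid genes. The part of these shifts in marker genes in the lysosomal changes was not tested. With bulk RNA a changed mix of cells, as of macrophages or neutrophil precursors, and more lysosomal RNA per macrophage cannot be told apart.

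In spleen the direction was the opposite. Arsb, Cln3, Gm2a, Ids, Man2b1, Sgsh and Smpd1 were lower in the T-ALL library, 7 of 31 members, and Gla was the 1 called higher. Among 9774 genes, 11% were lower and 10.3% higher. The members' median log2 fold was -0.65, that of all genes -0.08, and 29 of the 31 members were below 0. The macrophage genes had a median of -1.07 with 9 of 14 called lower, and 26 of the 31 members lay above that median. Cell cycle genes, at a median of 2.17, and T cell genes, at 1.46, were higher in the same library. Dendritic cell genes, at -2.35 with 6 of 7 called, and B cell genes, at -1.06 with 4 of 7 called, were lower. Neutrophil precursor genes were at -1.41, with 4 of 6 called lower and 1 higher. The part of these shifts in the members' lower CPM was not tested.

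The comparisons of T-ALL with normal in the 2 organs share no library. A log2 fold above 0 in bone marrow and below 0 in spleen was seen for 21 of the 31 members, and for 35% of all 10312 genes. Both were below 0 for 8 members and 19.8% of all genes. Ids and Sgsh, 2 of the 31, were called higher in bone marrow and lower in spleen, as were 289 of the 10312 genes (2.8%). Arsb was the 1 member called lower in both organs, against 12 of all genes (0.116%).

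**Figure D2:**
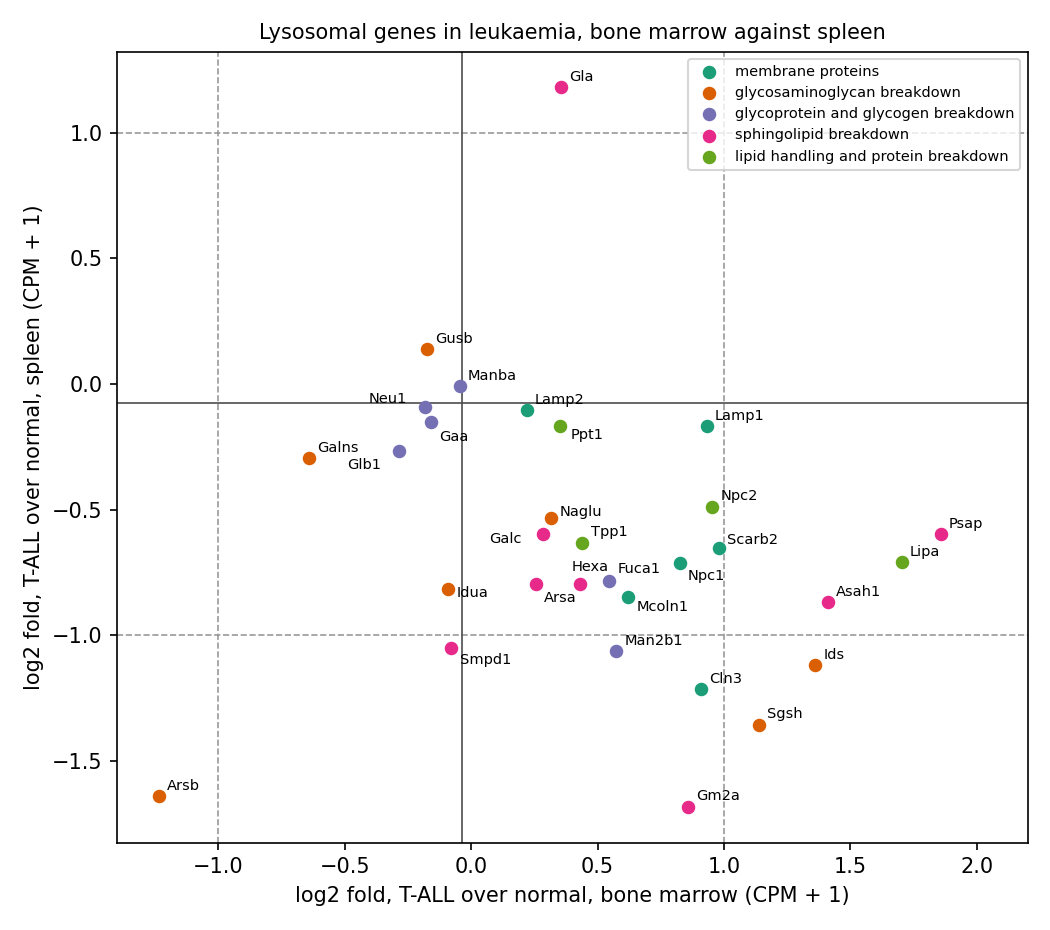
Log2 fold of T-ALL over normal in bone marrow (horizontal) and in spleen (vertical) for the 31 members, coloured by role; each point is 1 gene, dashed lines mark 2-fold and solid lines the median of all genes (-0.04 and -0.08). Of the 31 points, 21 lie right of 0 and below 0, Arsb lies low in both organs, and Gla is alone above 2-fold in spleen.

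Between organs, more members were called in the normal pair of libraries than in the T-ALL pair. Normal spleen was above normal bone marrow for 13 members and below for 3, with a median log2 fold of 0.75 against -0.04 over all genes. In this pair 16.1% of 10072 genes were higher in spleen and 14% lower. The 13 were Asah1, Cln3, Fuca1, Gm2a, Ids, Lipa, Man2b1, Naglu, Npc1, Ppt1, Psap, Scarb2 and Sgsh, and the 3 were Arsb, Galns and Gla. The Gla call ended with a pseudocount of 5, at a log2 fold of -0.80, and in RPKM, at -0.90. In the same pair the macrophage genes had a median of 3.30 with 11 of 14 higher in spleen and 2 lower, neutrophil precursor genes one of -6.40 with 12 of 12 lower, and cell cycle genes one of -2.70 with 10 of 10 lower. Their part in the members' differences was not tested. In the T-ALL mice 0 members were higher in spleen and 2, Arsb and Galns, lower, with a median of -0.40 against 0.01 over all genes, of which 5.44% were higher and 11% lower among 9852. The comparisons between organs and those between conditions share libraries, so their values are given side by side. Whether the organ difference itself changed with leukaemia could not be tested with 1 library per group. The 2 T-ALL libraries also differed in the sex-linked transcript Xist, described below.

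Of the 6 membrane proteins of the lysosome, all had a log2 fold above 0 in bone marrow and below 0 in spleen, a pattern of 35% of all genes. Their medians were 0.87 and -0.68, but 0 passed 2-fold in bone marrow and 1, lower in T-ALL, in spleen. Over all genes, 8.01% were higher and 1.03% lower in bone marrow, and 10.3% higher and 11% lower in spleen. Lamp1 and Lamp2 coat the inner face of the lysosomal membrane with sugar chains. Lamp1 was at 340.5 CPM in normal and 650.1 CPM in T-ALL bone marrow, and at 574 CPM in normal and 511 CPM in T-ALL spleen. It was lowest in normal bone marrow and varied little elsewhere. Lamp2, also needed for the fusion of autophagosomes with lysosomes, was at 293, 341, 203 and 189 CPM in the same order, so that its marrow levels exceeded its spleen levels in both conditions. In T-ALL bone marrow Lamp1 was 1.91-fold (1.83 to 1.99) and Lamp2 1.16-fold (1.11 to 1.23) above normal.

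Scarb2, which carries the glucocerebrosidase to the lysosome, was the closest to the threshold without passing it. It went from 46.0 to 91.5 CPM in bone marrow, 1.99-fold (1.78 to 2.24), and from 106 to 67.2 CPM in spleen. Npc1, which exports cholesterol from the lysosome, and Mcoln1, a cation channel that releases calcium, were lowest in normal bone marrow, at 52.4 and 23.4 CPM, and highest in normal spleen, at 122 and 46.0 CPM. Cln3, a membrane protein lost in the juvenile form of neuronal ceroid lipofuscinosis, had 36.3 CPM in normal bone marrow, 69.1 in T-ALL bone marrow, 85.5 in normal spleen and 36.3 in T-ALL spleen. It was the only membrane protein of the 6 to pass in spleen, 2.36-fold lower (2.07 to 2.69) in T-ALL.

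Enzymes of glycosaminoglycan breakdown split. In T-ALL bone marrow 2 of 7 were higher and 1 lower (median log2 fold -0.09), against 8.01% and 1.03% of all genes. In T-ALL spleen 3 were lower (-0.81), against 11% of all genes. Ids and Sgsh, both sulfatases that act on heparan sulfate, were low in normal bone marrow and high in normal spleen. Ids was at 31.9 CPM in normal and 83.4 CPM in T-ALL bone marrow, and reached 119 CPM in normal and 54.0 CPM in T-ALL spleen. That made it 2.62-fold higher (2.29 to 2.99) with leukaemia in bone marrow and 2.19-fold lower (1.97 to 2.45) in spleen. Sgsh followed the same order, with 17.1, 39.0, 55.8 and 21.2 CPM. Its folds were 2.27 higher (1.89 to 2.74) and 2.63 lower (2.23 to 3.12), and with a pseudocount of 5 its log2 fold in bone marrow was 0.99, no longer a call.

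Arsb and Galns, sulfatases that act on dermatan, chondroitin or keratan sulfate, went the other way between organs. Arsb was at 308 CPM in normal and 130.3 CPM in T-ALL bone marrow, and at 63.2 CPM in normal and 19.6 CPM in T-ALL spleen. Each step down was larger than its counting error, and its highest library exceeded the lowest 15.7-fold, the widest span of the 31 members. Arsb was 2.36-fold lower (2.21 to 2.53) with leukaemia in bone marrow and 3.23-fold lower (2.72 to 3.83) in spleen. Galns, at 121, 77.1, 32.9 and 26.6 CPM, had the same order but passed 2-fold between organs alone, 3.67-fold lower (3.23 to 4.19) in normal spleen than in normal bone marrow and 2.89-fold lower (2.50 to 3.36) in the T-ALL pair. The summed genes of neutrophil precursors had the same order of libraries. They ran from 35654 CPM in normal bone marrow through 18246 and 385 to 184 CPM in T-ALL spleen. Glb1, Manba and Neu1 had this order too, with the highest library 1.58-, 1.43- and 1.22-fold above the lowest. Some of these steps lay within counting error. For Manba, T-ALL was 0.97-fold (0.86 to 1.09) of normal in bone marrow and 0.99-fold (0.86 to 1.15) in spleen. For Neu1 it was 0.94-fold (0.85 to 1.04) in spleen. The share of all genes with this order was not counted, and the part of neutrophil precursors in Arsb and Galns was not tested.

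The other 3 enzymes of this group changed less. Naglu, which removes N-acetylglucosamine from heparan sulfate, was 2.04-fold higher (1.76 to 2.38) in normal spleen than in normal bone marrow, a call that ended under total-count scaling at a log2 fold of 0.99. Idua, the iduronidase, stayed between 29.3 and 52.4 CPM, highest in normal spleen. Gusb, the glucuronidase, had 176.5, 156, 125 and 138 CPM across normal and T-ALL bone marrow and normal and T-ALL spleen, and it was the 1 member below 0 in bone marrow and above 0 in spleen.

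Enzymes that take sugars off glycoproteins, together with the glycogen-degrading Gaa, had medians nearest those of all genes in spleen, at -0.21, and -0.10 in bone marrow. Gaa ranged from 93.4 to 104 CPM and Neu1, the sialidase, from 85.6 to 104 CPM over the 4 libraries. Glb1, the beta-galactosidase, and Manba, the beta-mannosidase, were highest in normal bone marrow, at 76.9 and 59.0 CPM, and lowest in T-ALL spleen, at 48.6 and 41.4 CPM. None of these 4 passed 2-fold in any of the 4 comparisons. Man2b1, the alpha-mannosidase, stood apart with 416 CPM in normal and 619.9 CPM in T-ALL bone marrow, and with 994 CPM in normal and 475 CPM in T-ALL spleen. It was thus highest in normal spleen, and 2.09-fold lower (2.02 to 2.17) in T-ALL spleen. Fuca1, the fucosidase, was also highest in normal spleen, at 124 CPM, and 2.12-fold above (1.92 to 2.35) normal bone marrow.

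Of the 8 genes of sphingolipid breakdown, 2 were higher in T-ALL bone marrow, against 8.01% of all genes. In T-ALL spleen 2 were lower and 1 higher, against 11% and 10.3% of all genes. The median log2 folds of the 8 were 0.39 and -0.79. Psap was at 1134 CPM in normal and 4109 CPM in T-ALL bone marrow, and at 4863 CPM in normal and 3214 CPM in T-ALL spleen. Normal bone marrow was the low library and the other three lay closer together. Psap was 3.62-fold higher (3.55 to 3.70) with leukaemia in bone marrow and 1.51-fold lower (1.49 to 1.54) in spleen. Asah1, the acid ceramidase, had 76.0, 204, 251 and 137 CPM in the same order, and was 2.68-fold higher (2.46 to 2.92) in T-ALL bone marrow. Gm2a, the activator that lifts ganglioside GM2 out of membranes for the hexosaminidase, had 248, 451, 1006 and 313 CPM. Its high library was normal spleen, and it was 3.21-fold lower (3.08 to 3.35) in T-ALL spleen.

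Of the remaining sphingolipid enzymes, Hexa, the alpha subunit of the hexosaminidase that Gm2a serves, ran from 154 CPM in T-ALL spleen to 268 CPM in normal spleen and passed in none of the 4 comparisons. Smpd1, the acid sphingomyelinase, was level at 33.6, 31.8 and 35.3 CPM in the first 3 libraries and at 16.6 CPM in T-ALL spleen, 2.13-fold lower (1.75 to 2.61) than in normal spleen. Arsa and Galc, which degrade sulfatide and galactosylceramide of myelin, stayed between 25.1 and 44.3 CPM. Gla, the alpha-galactosidase lost in Fabry disease, was the exception, at 21.1 CPM in normal and 27.3 CPM in T-ALL bone marrow, and at 9.96 CPM in normal and 23.8 CPM in T-ALL spleen. Normal spleen, the high library of most members, was its low one, as it was for Gusb. Gla was 2.39-fold higher (1.86 to 3.10) in T-ALL spleen. With a pseudocount of 5 the log2 folds of Smpd1 and Gla in spleen were -0.90 and 0.95, so that both calls ended.

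**Figure D3:**
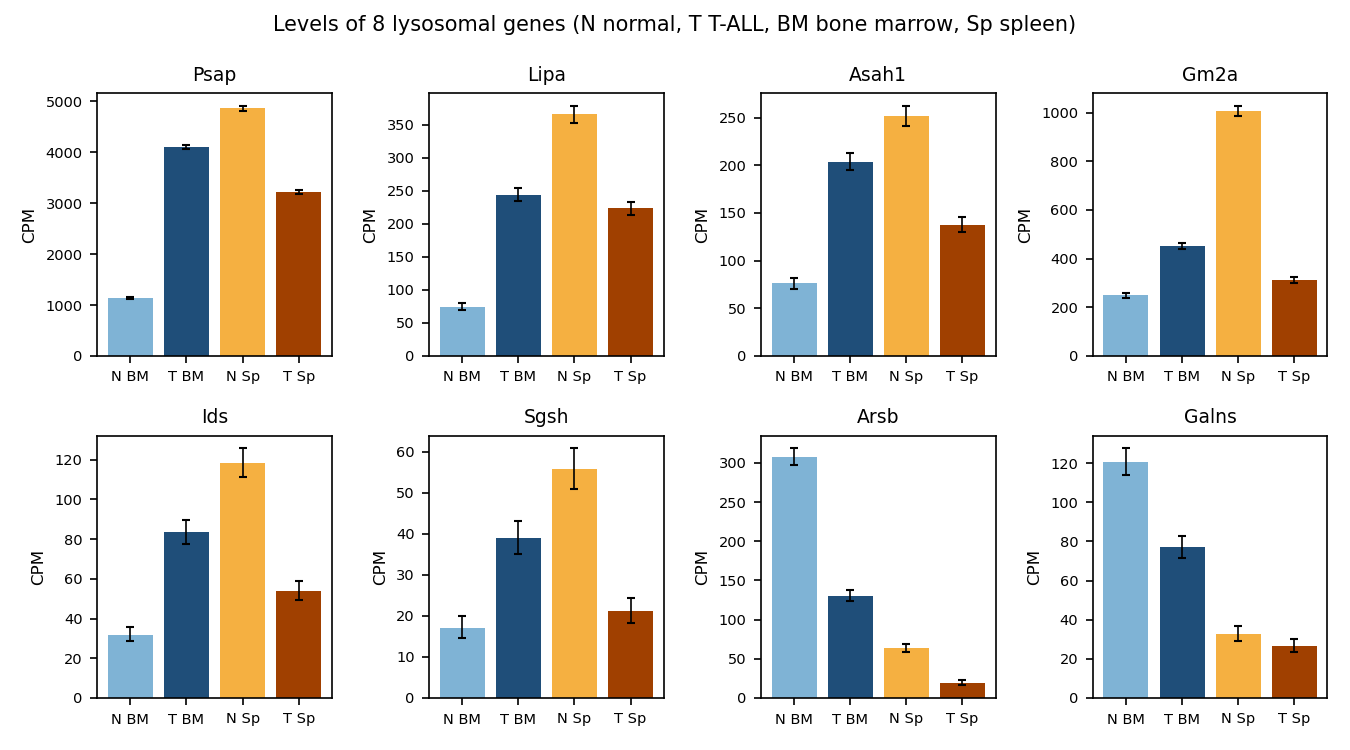
CPM of 8 members, chosen after their values were seen, in normal (N) and T-ALL (T) bone marrow (BM) and spleen (Sp); bars are single libraries and error bars the exact Poisson 95% counting interval. In the first 6 panels the lowest bar is normal bone marrow and the highest normal spleen; Arsb and Galns are highest in normal bone marrow.

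Lipa, the acid lipase that frees cholesterol from its esters, had the largest organ difference on the higher side. It was at 74.3 CPM in normal and 244 CPM in T-ALL bone marrow, and at 366 CPM in normal and 224 CPM in T-ALL spleen. The T-ALL libraries thus lay close to each other, between the normal ones. Lipa was 3.28-fold higher (3.02 to 3.57) in T-ALL than in normal bone marrow and 4.93-fold higher (4.54 to 5.34) in normal spleen than in normal bone marrow. Npc2, the soluble partner that hands cholesterol to Npc1, was highest in T-ALL bone marrow at 403 CPM and lowest in normal bone marrow at 207 CPM, 1.94-fold apart (1.84 to 2.05). Of the enzymes of protein breakdown, Tpp1, a peptidase, had 90.5, 123, 174 and 112 CPM, and Ppt1, which removes fatty acids from proteins, 126, 161, 282 and 251 CPM. Ppt1 was the member with the highest log2 fold of T-ALL spleen over T-ALL bone marrow, 0.64, and only Naglu, at 0.16, and Gaa, at 0.00, were not below 0 beside it.

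Tfeb, the transcription factor that binds the CLEAR element, was at 38.9 CPM in normal and 64.8 CPM in T-ALL bone marrow. In spleen it was at 129.6 CPM in normal and 50.7 CPM in T-ALL. It was lowest in normal bone marrow and highest in normal spleen. In T-ALL bone marrow it was 1.67-fold above normal (1.47 to 1.90) and not called, and in T-ALL spleen it was 2.56-fold lower (2.30 to 2.85). Its relatives and partners were counted next. Over all genes, 8.01% were higher and 1.03% lower in T-ALL bone marrow, and 10.3% higher and 11% lower in T-ALL spleen. Of 14 further genes of its family and of the mTORC1 machinery on the lysosome, 13 reached 10 CPM. Of these, 0 were called in either comparison of T-ALL with normal, with medians of 0.05 in bone marrow and -0.16 in spleen. Rragc, a GTPase that recruits mTORC1 and the most abundant of them, had 82.8, 97.0, 105 and 84.6 CPM. The 9 members with the E-box hexamer in their window had a median log2 fold of 0.35 in bone marrow and -0.53 in spleen, and the 19 without it 0.43 and -0.65.

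Other lysosomal genes, from lists not used by the membership rule, gave the following counts for T-ALL against normal. Over all genes, 8.01% were higher and 1.03% lower in bone marrow, and 10.3% higher and 11% lower in spleen. Of 18 other hydrolases and their partners 16 reached the minimum. In bone marrow 7 of the 16 were higher and 0 lower (median 0.95), led by Naaa, which degrades acylethanolamides, at 2.86-fold (2.52 to 3.24), Acp5, the tartrate-resistant phosphatase, at 2.79-fold (2.45 to 3.19), and Ctsa, the protective protein of Neu1 and Glb1, at 2.61-fold (2.46 to 2.77). In spleen 1 of 16 was lower (median -0.64), and this was again Naaa, which went from 129 to 31.4 CPM. Of 17 other lysosomal membrane proteins 2 were higher in bone marrow, Cd68 at 5.38-fold (4.80 to 6.05) and Laptm4a at 2.16-fold (2.004 to 2.33). Of 18 in spleen 1 was higher, the peptide transporter Abcb9, which went from 8.501 to 44.3 CPM. The medians were 0.50 and -0.57.

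The machinery that acidifies and supplies the lysosome was counted in the same way, beside the same shares of all genes (8.01% higher and 1.03% lower in bone marrow, 10.3% and 11% in spleen). Of 16 genes of the proton pump that reached the minimum, 0 were called in either organ, with medians of 0.16 in bone marrow and -0.23 in spleen. The most abundant, Tcirg1, a membrane subunit of the pump, had 238 and 281 CPM in bone marrow and 285 and 146 CPM in spleen, normal first. Of 18 genes that deliver or activate the enzymes, 1 was higher in bone marrow, Cln8, a receptor that helps enzymes leave the endoplasmic reticulum, at 3.35-fold (2.88 to 3.91). In spleen 3 of the 18 were lower and 1 higher. Sumf1, which switches on all sulfatases, was 2.65-fold lower (2.29 to 3.07), the sorting receptor Sort1 2.198-fold lower (2.04 to 2.37), and the mannose-phosphate receptor Igf2r 2.14-fold higher (1.93 to 2.38). Cln8 was the third lower gene, at 2.03-fold (1.84 to 2.24).

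**Figure D4:**
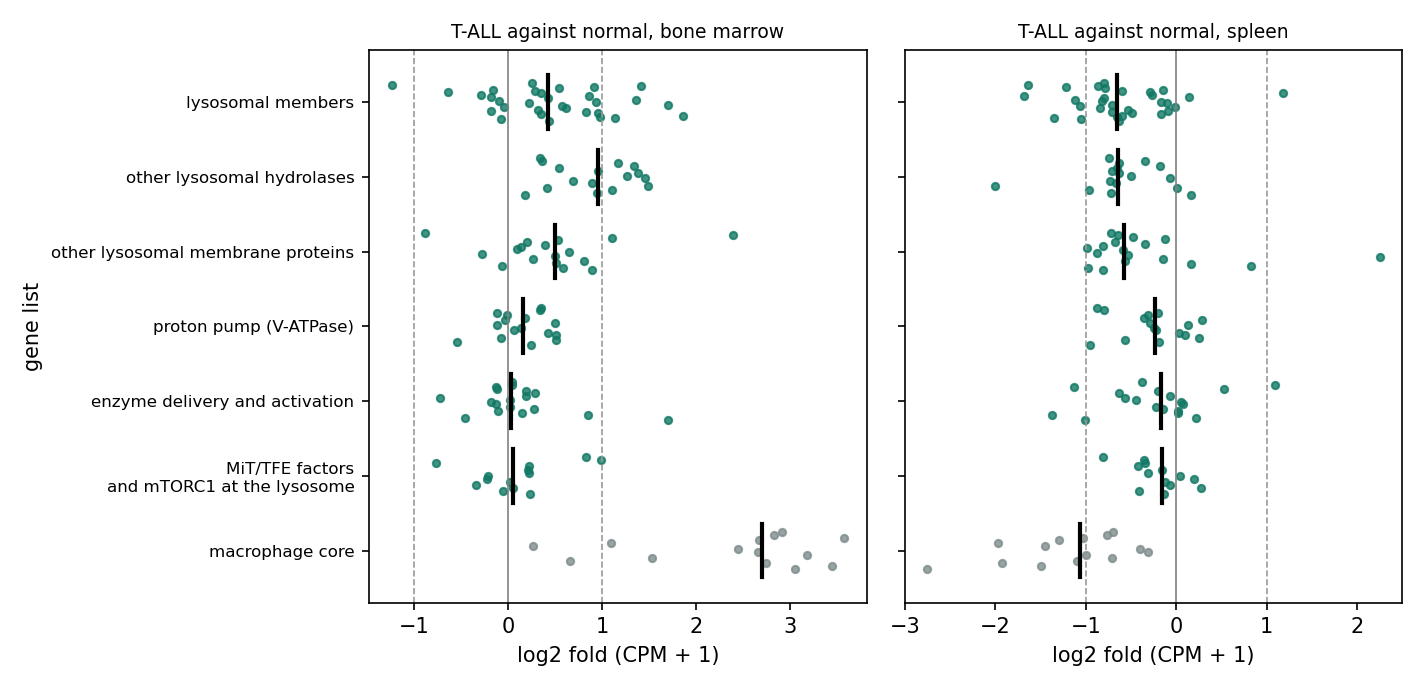
Log2 folds of T-ALL over normal in bone marrow (left) and spleen (right) for the 31 members, the 5 other lysosomal lists and the macrophage marker genes; each point is 1 gene that reached 10 CPM, black bars are medians and dashed lines mark 2-fold. In bone marrow the macrophage median (2.70) lies to the right of all lysosomal points, of which Cd68 (2.40) is nearest, and in spleen the macrophage median (-1.07) is the lowest of the 7.

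Of the members, Gla, Ids and Lamp2 lie on the X chromosome, and sex-linked transcripts differed between libraries. Xist was at 861 and 849 CPM in normal bone marrow and spleen, and at 0.644 and 416 CPM in the T-ALL libraries. Reads of Ddx3y, a gene of the Y chromosome, numbered 0 in each normal library, 874 in T-ALL bone marrow and 532 in T-ALL spleen. These transcripts differed with condition in both organs, so the sex of the cells and the leukaemia cannot be told apart. Xist also differed within the T-ALL pair, with 6 reads in bone marrow and 3846 in spleen. In that pair the sex of the cells and the organ cannot be told apart either. T-ALL spleen held reads of both Xist and Ddx3y, so it cannot be taken as cells of 1 sex. Which of its cells carried these transcripts was not tested. Without the 3 X-linked members 4 genes were higher and 1 lower in bone marrow, and 0 higher and 6 lower in spleen. The deposited annotation gave 22 of the 31 members the cellular component term lytic vacuole, and Lamp1, Lamp2 and Psap were among those without it.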

How the data were processed

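RNA of sorted macrophages was sequenced as 4 libraries, 1 for each of normal and T-ALL bone marrow and spleen. Per the file headers, the deposited counts are uniquely mapped reads per gene with no normalization. The deposited RPKM were the authors' counts per gene length and library total, and recomputing them gave a largest deviation of 9.15e-06%. The aligner, genome build and annotation used for counting were not given in the sources used here.

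Members were matched by symbol, a missing line was read as 0, and CPM rested on totals multiplied by TMM factors from edgeR 4.0.16 under R 4.3.3. Calls needed 2-fold on log2(CPM + 1) and 10 CPM in the higher library. Exact binomial and Poisson 95% intervals (Python 3.11.15, scipy 1.17.1) cover counting error only, since PCR reads without molecular identifiers are not independent molecules. With 1 library per group no test across mice was possible.

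Members and gene lists were chosen with earlier results of these data known. All members are named. Of each pathway list the text names up to 3 genes of largest change per comparison of T-ALL with normal, or the most abundant gene where 0 were called, and of each marker list the 2 most abundant. Cln8 in spleen, Cd63 and the 8 plotted members were chosen after their values were seen. Alternatives were other library scalings, pseudocounts, minimum levels, the deposited RPKM and a 1.5-fold threshold, and leaving out X-linked members was added after the data were seen. Promoter windows came from RefSeq (GRCm38.p6).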

Additional observations from a re-analysis of the deposited data

Results flagged for a closer look

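Ids and Sgsh, both enzymes of heparan sulfate breakdown, were called in opposite directions in the 2 organs, 2 of 31 members against 2.8% of all genes (289 of 10312) called higher in bone marrow and lower in spleen. The log2 fold of T-ALL over normal was 1.36 in bone marrow and -1.12 in spleen for Ids, and 1.14 in bone marrow and -1.35 in spleen for Sgsh. The Sgsh call in bone marrow ended with a pseudocount of 5 and in RPKM, at 0.99 in both. Ids lies on the X chromosome, and Xist differed between normal and T-ALL libraries in both organs. Each direction rests on 1 library per group, and the difference between the organs was not tested.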

How the results depend on the processing

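Of the log2 folds of single genes under the alternatives, 0 reversed, 624 kept their direction and call within counting error, 4 (all of Psap) moved beyond it, and 12 lost a call. Calls ended for Sgsh in bone marrow (0.99 with a pseudocount of 5 and 0.99 in RPKM), Smpd1 in spleen (-0.90 and -0.98), Gla in spleen (0.95, and 1.06 in RPKM but under the minimum), Gla between normal organs (-0.80 and -0.90) and Naglu between normal organs (0.91 and 0.95, and 0.99 under both other scalings).

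At 1.5-fold the members called were 12 higher and 2 lower in bone marrow, 19 lower in spleen, and 1 higher and 9 lower in T-ALL spleen against T-ALL bone marrow, as a lower threshold admits more genes. Of all genes, 14.1% were then higher and 7.09% lower in bone marrow, 23.9% lower in spleen, and 14.1% higher and 19.1% lower in the T-ALL pair. The 1 member higher in spleen, Gla, became 0 with a pseudocount of 5, with a minimum of 50 CPM, in RPKM with a minimum of 10, and without the 3 X-linked members, an alternative chosen after seeing the data. With a minimum of 50 CPM the median log2 fold was 0.55 in bone marrow and 0.97 between normal organs, where fewer members are tested, and the latter was 0.82 in RPKM and 0.84 without the X-linked members. Other scalings moved the median of all genes by at most 0.054.

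No paired analysis was possible because each group holds 1 library, and no library was left out for the same reason. Counting error is small at this depth (89 reads at the least, for Gla in normal spleen), but the spread between mice is unknown.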

Other observations

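Cd63, a membrane protein of late endosomes, lysosomes and granules, was singled out after its values were seen. It was at 370.5 CPM in normal and 201 CPM in T-ALL bone marrow, and at 19.7 CPM in normal and 11.6 CPM in T-ALL spleen. Its libraries stood in the same order as those of Arsb, Galns, Glb1, Manba, Neu1 and the summed genes of neutrophil precursors. Some of the steps of Manba and Neu1 lay within counting error, and the share of all genes with this order was not counted. The log2 folds were -0.88 and -0.72 for T-ALL over normal in bone marrow and spleen, and -4.17 for normal spleen over normal bone marrow.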
